A study of Mus musculus with 8 samples.

Results

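Potassium channel genes were taken as the protein-coding genes of the GRCm38 RefSeq gene table, on chromosomes 1 to 19 and X, whose symbol begins with Kcn. There were 94 such genes among 21631 protein-coding genes, which left 21537 other genes for comparison. They comprised 30 genes of voltage-gated pore subunits, 10 of silent voltage-gated subunits, 13 of auxiliary subunits and regulators, 15 of inward rectifiers, 14 of two-pore channels and 12 of calcium- or sodium-activated channels and their subunits. A gene's window was its body with 10 kb on either side. Kcnj9 and Kcnj10 had touching windows, as did Kcnip1 and Kcnmb1, so these pairs can share a peak.

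Open chromatin had been mapped in mouse granulosa cells by ATAC-seq, in which the Tn5 transposase cuts accessible DNA, and a list of peaks was deposited for each of 8 libraries. In the LH experiment, wildtype CBA x C57BL/6 F1 mice gave 2 libraries after hCG, which stands in for the ovulatory surge of luteinizing hormone, and 2 PMSG libraries from mice primed with eCG (PMSG) alone. In the PR experiment, 2 libraries came from wildtype (WT) and 2 from PR knockout (KO) mice of the strain C.129S7(B6)-Pgrtm1Bwo/OmcJ, all after hCG. The knockout lacks the progesterone receptor, Pgr, in the whole animal. All mice were 21 days old and received 5 IU of eCG; hCG was given as 5 IU 46 h later, and those mice were killed after a further 6 h. Each library pooled 2 to 3 mice, so the replicates are pools and not single animals. The time tags of the LH libraries run against their titles (0 h after hCG for the hCG libraries, 6 h for the PMSG libraries); the titles and source names were followed here. The PR libraries carry the 6 h tag and the series text places them after hCG, although their source name reads pre-ovulatory. The 2 experiments differ in strain and share no library, so each was compared within itself.

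Potassium channels let potassium leave or enter a cell along its gradient and so set the resting membrane potential. Voltage-gated channels open on depolarization, inward rectifiers and two-pore channels carry resting current, and calcium-activated channels link intracellular calcium to the membrane potential. Silent subunits form no channel alone and modify the voltage-gated pores they join, while auxiliary subunits alter gating and traffic. In granulosa cells, which surround the oocyte and make steroids, luteinizing hormone raises cyclic AMP and calcium, signals to which several of these channels respond.

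The lists held from 55654 to 65567 distinct intervals in the hCG, PMSG and KO libraries but 80137 and 84313 in WT replicates 1 and 2, so a region missing from KO may be missing with the length of its list. Read depth is not given in the peak lists. Any 2 libraries shared between 46 and 361 intervals with identical ends, and none repeated another. Of the granulosa markers, the listed starts of Foxl2, Fshr and Esr2 lay in a peak of all 8 libraries, Cyp19a1 in 7 and Inhba in 6, while the listed starts of Inha and Nr5a2 lay in none. None of 4 oocyte and none of 3 surface epithelium marker starts lay in a peak, but those of Acta2 (stroma) and Kdr (endothelium) did in all 8, Tcf21 (stroma) in 5 and Cd68 (macrophages) in both hCG libraries. The listed starts of Pdgfra (stroma), Tek (endothelium) and Ptprc (leukocytes) lay in none. The part of these cell types in the results was not tested. The start of Pgr lay in a peak of both KO libraries, of both WT libraries and of no LH library, which tells nothing about the knockout allele, since accessibility and not transcript was measured. Replicates within PR groups differed: of the Kcn regions found only with PMSG in the LH experiment, WT replicate 1 held 85.1% and WT replicate 2 held 57.4%, and KO replicate 2 held 40.4% against 21.3% for KO replicate 1. The main counts that rest on the PR libraries were therefore also made without each of them.

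A start from the RefSeq promoter table (GRCm38.p6) was listed for 69 of the 94 Kcn genes, with 94 starts in all. The sequences shown are the 250 bases before a listed start, written 5′ to 3′ in the direction of transcription. The first group holds starts in a peak of both libraries of 1 group and neither of the other.

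Kcne1l, chrX:142306199-142306448, minus strand: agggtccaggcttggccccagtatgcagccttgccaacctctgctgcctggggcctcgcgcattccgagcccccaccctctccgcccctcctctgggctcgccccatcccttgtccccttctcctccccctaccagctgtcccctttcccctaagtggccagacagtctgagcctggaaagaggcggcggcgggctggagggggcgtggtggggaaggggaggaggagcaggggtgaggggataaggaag

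Kcne2, chr16:92292139-92292388, plus strand: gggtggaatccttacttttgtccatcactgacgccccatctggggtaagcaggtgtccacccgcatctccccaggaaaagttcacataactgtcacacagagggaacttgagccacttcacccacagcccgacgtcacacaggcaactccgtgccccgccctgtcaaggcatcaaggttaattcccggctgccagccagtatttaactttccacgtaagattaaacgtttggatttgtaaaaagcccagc

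Kcne4, chr1:78816661-78816910, plus strand: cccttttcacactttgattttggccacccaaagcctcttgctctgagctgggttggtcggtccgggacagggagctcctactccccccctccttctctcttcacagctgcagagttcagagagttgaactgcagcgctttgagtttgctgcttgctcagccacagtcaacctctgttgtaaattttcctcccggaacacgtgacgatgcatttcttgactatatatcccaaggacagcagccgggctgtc

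Next come an upstream start of Kcnip3 that lay in a peak of both WT and neither KO library, with an AP-1 match (TGANTCA) in capitals, and the start of Kcnn4, beside an hCG-only region, with 4 RUNX matches (ACCACA or its reverse complement TGTGGT) in capitals.

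Kcnip3, chr2:127522095-127522344, minus strand: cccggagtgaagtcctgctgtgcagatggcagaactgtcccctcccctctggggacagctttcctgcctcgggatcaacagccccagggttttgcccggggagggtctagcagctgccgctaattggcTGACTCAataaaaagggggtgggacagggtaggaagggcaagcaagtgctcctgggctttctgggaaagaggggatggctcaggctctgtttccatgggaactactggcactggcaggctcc

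Kcnn4, chr7:24370013-24370262, plus strand: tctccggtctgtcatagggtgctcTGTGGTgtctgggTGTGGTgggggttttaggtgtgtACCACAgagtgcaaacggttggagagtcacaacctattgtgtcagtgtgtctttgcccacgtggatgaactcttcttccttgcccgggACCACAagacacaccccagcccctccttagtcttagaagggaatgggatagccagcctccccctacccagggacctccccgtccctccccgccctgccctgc

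The last were open in all 8 libraries and serve as the contrast, Kcnma1 as a start rich in CpG and Kcnj8 as one poorer in CpG.

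Kcnma1, chr14:24004206-24004455, minus strand: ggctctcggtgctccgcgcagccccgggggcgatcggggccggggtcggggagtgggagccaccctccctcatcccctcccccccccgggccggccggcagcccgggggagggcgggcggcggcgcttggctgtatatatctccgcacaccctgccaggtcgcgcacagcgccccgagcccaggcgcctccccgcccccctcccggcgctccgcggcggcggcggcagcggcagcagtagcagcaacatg

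Kcnj8, chr6:142571615-142571864, minus strand: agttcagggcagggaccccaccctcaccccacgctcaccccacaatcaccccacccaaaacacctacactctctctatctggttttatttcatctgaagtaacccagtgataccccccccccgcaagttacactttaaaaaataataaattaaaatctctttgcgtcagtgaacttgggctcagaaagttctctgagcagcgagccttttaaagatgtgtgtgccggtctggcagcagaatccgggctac

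Of the 69 Kcn genes with a listed start, 31 (44.9%) had one inside a peak of all 8 libraries, against 57.0% of 17205 other genes, and 30 (43.5%) had none in any library, against 37.7%. A gene counted as open where any of its listed starts lay in a peak, and in every library the share of open genes was lower for Kcn than for other genes. The hCG libraries each held 35 of 69 Kcn genes (50.7%, against 60.5% and 60.2% of other genes). The PMSG libraries held 32 and 33 (46.4% and 47.8%, against 59.3% and 59.1%), WT held 39 and 36 (56.5% and 52.2%, against 61.1% and 60.9%), and KO held 35 and 33 (50.7% and 47.8%, against 60% and 58.6%). Both hCG libraries held starts of more Kcn genes than both PMSG libraries, and both WT libraries more than both KO libraries. Other genes had the same order in both experiments.

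The starts open throughout came from every role. Among voltage-gated pores they were Kcna3, Kcna4, Kcnc1, Kcnc2, Kcnd2, Kcnh1, Kcnh2, Kcnh6 and Kcnq5, and among silent subunits Kcng3 and Kcns3. Auxiliary genes gave Kcnab2, Kcne3, Kcnip2 and Kcnip3, and inward rectifiers gave Kcnj2, Kcnj3, Kcnj5, Kcnj8 and Kcnj10. Two-pore channels gave Kcnk2, Kcnk5, Kcnk10, Kcnk12, Kcnk13 and Kcnk15, and the calcium- or sodium-activated group gave Kcnma1, Kcnmb4, Kcnn1, Kcnn3 and Kcnt2. The authors' fold over the peak caller's background, which is a peak's own height in its own list, was highest at Kcna4, a rapidly inactivating pore, with a median of 17.7 over the 8 libraries (14.0 to 19.6). Kcnip2, whose product binds the pores of the Kcnd family, had the lowest median, 5.21 (4.51 to 6.26). At the start of Kcnma1, the pore of the large-conductance calcium-activated channel, the fold was 8.21 and 8.80 with hCG, 8.68 and 8.09 with PMSG, 9.40 and 8.31 in WT, and 8.57 and 8.53 in KO. At Kcnj8, a pore of the ATP-sensitive channel, it was 11.2 and 11.3, 11.6 and 13.0, 10.8 and 12.5, and 10.7 and 11.1 in the same order. The groups overlapped at Kcnma1 in both experiments. At Kcnj8 both hCG folds lay below both PMSG folds, the nearest pair being 11.3 and 11.6, while WT and KO overlapped. This order was not particular to Kcnj8. It also held at the starts of Kcna4 and Kcnh1, among others, and was the reverse at Kcnj3 and at a start of Kcnk10. The share of other genes with either order was not computed.

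Kcn promoters held fewer CpG dinucleotides than those of other genes. Over the 300 bases from 250 before to 50 after each start, the ratio of observed to expected CpG was 0.6 or more at 26 of 94 Kcn starts (27.7%) and at 48.2% of 20951 other starts. Kcn starts open in all 8 libraries had a median GC content of 66.0% and a median CpG ratio of 0.666, and those open in none had 54.0% and 0.251. Of the CpG-rich Kcn starts, 18 (69.2%) were open in all 8 libraries, against 88.9% of CpG-rich starts of other genes. Among starts with a ratio under 0.6 the shares were 22.1% and 21.3%. The 5 CpG-rich Kcn starts closed in all 8 libraries, named after their values were seen, belonged to Kcna2, Kcnh7, Kcnh8, Kcnj6 and Kcns1. Kcna2 and Kcnh7 also had no peak anywhere in their windows.

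Short motifs were searched on both strands of the same 300 bases, where matches of different motifs may overlap. The AP-1 letters TGANTCA were present at 4.26% of Kcn starts against 7.05% of other starts. The letters AGATAA, bound by GATA factors, were present at 4.26% against 9.71%. For RUNX, ACCACA was present at 11.7% against 14.8%. The orphan receptors of the NR5A family bind AAGGTCA, which was present at 3.19% against 4.06%. The paired steroid receptor half-sites ACANNNTGT were present at 6.38% against 6.03%. The cyclic AMP response element TGACGTCA was at 0% against 2.27%, and TCAGCACC, a part of the site of the neuronal repressor REST, at 1.06% against 1.71%. All 6 Kcn starts with the steroid receptor match, at Kcna5, Kcne2, Kcnf1, Kcnip4, Kcnrg and Kcns3, lay in no peak of any library, as did 810 of the 1264 other starts with these letters. A match is a run of letters and not a bound site.

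The Kcn genes took a near-constant share of each list. Kcn windows held 341 and 330 intervals in the hCG libraries, 315 and 319 in the PMSG libraries, 433 and 462 in WT, and 302 and 294 in KO. Per 1000 intervals of the library this was 5.201 and 5.295 with hCG, 5.432 and 5.427 with PMSG, 5.403 and 5.480 in WT, and 5.132 and 5.283 in KO. The hCG mean of 5.248 ± 0.0664 (SD, n = 2) lay 0.182 below the PMSG mean of 5.429 ± 0.00337 (SD, n = 2; two-sided exact permutation p = 0.33). The WT mean of 5.441 ± 0.0540 (SD, n = 2) lay 0.234 above the KO mean of 5.207 ± 0.107 (SD, n = 2; two-sided exact permutation p = 0.33). In both experiments the groups did not overlap, and 0.33 is the smallest p that 2 libraries against 2 can give. The first difference turned to 0.0748 with 50 kb flanks and was -0.0948 with the same number of peaks taken from each list by fold. The WT minus KO difference shrank to 0.0809 with the same number of peaks (p = 0.67 by the exact permutation test, with groups that overlapped) and to 0.0841 with the gene body alone. The WT and KO groups also overlapped with the same number of peaks by −log10 q (0.198; p = 0.67 by the exact permutation test).

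**Figure D1:**
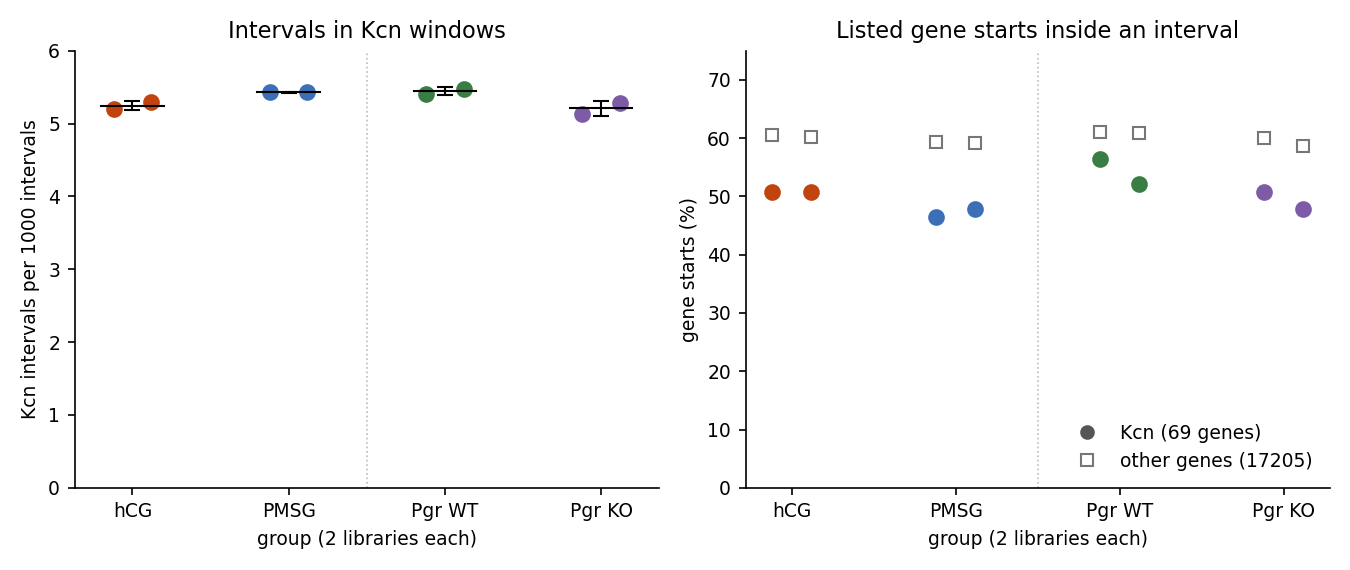
Left, intervals in Kcn windows per 1000 intervals of each library; points are libraries, lines the group mean and bars the SD of 2 libraries. Right, the share of listed gene starts inside an interval of each library, for the 69 Kcn genes (filled circles) and 17205 other genes (open squares); Kcn genes sit between 46.4% and 56.5%, below other genes in all 8 libraries.

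Intervals of the 4 libraries of an experiment were merged where they overlapped by 1 bp, which gave regions. A region was called hCG-only when both hCG libraries and neither PMSG library held it, and the other groups likewise; lists record presence and no reads, so no single region was tested. In the LH experiment the Kcn windows held 433 regions, of which 216 (49.9%) were in all 4 libraries, against 53.3% of the 60067 regions of other genes. There were 72 hCG-only Kcn regions (16.6%, where other genes had 16.7%) and 47 PMSG-only ones (10.9%, where other genes had 8.89%). With the same number of peaks taken from each list by fold, 65 (15.4%) were hCG-only and 56 (13.3%) PMSG-only, against 14.0% and 12.2% of regions of other genes. All 65 and 47 of the 56 were among those called with full lists.

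By gene, 35 of 94 Kcn genes (37.2%) had an hCG-only region, against 30.6% of other genes, and 26 (27.7%) had a PMSG-only region, against 18.8%. Both kinds occurred at 12 Kcn genes (12.8%, against 10.4%). At equal list length, 33 Kcn genes (35.1%, against 25.6%) had an hCG-only region, 32 (34.0%, against 24.0%) a PMSG-only region and 17 (18.1%, against 10.9%) both. Kcn windows were longer, with a median of 52.7 kb against 37.3 kb, and held 3.45 LH regions per 100 kb against 5.20. In windows under 50 kb, 25% of Kcn genes and 19.4% of other genes had an hCG-only region; from 50 to 200 kb the shares were 41.4% and 48.5%, and from 200 kb 57.1% and 69.6%. For PMSG-only regions the shares in the same 3 window classes were 11.4% and 9.36%, 20.7% and 31.6%, and 71.4% and 66.0%, so Kcn genes were below other genes in the middle class for both kinds. The number of intervals in the window was higher in both hCG than in both PMSG libraries at 20 Kcn genes (21.3%, against 19.1% of other genes) and lower at 15 (16.0%, against 9.01%).

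Group-only Kcn regions lay mostly in gene bodies, as did those of other genes, and their median distance from a listed start was longer. Of 72 hCG-only regions 57 (79.2%, against 83.8% for other genes) overlapped the gene body, and the median distance to the nearest listed start of the gene was 65.5 kb (23.7 kb). For PMSG-only regions these were 38 of 47 (80.9%, against 84.5%) and 54.4 kb (32.0 kb), and for regions in all 4 libraries 155 of 216 (71.8%, against 88.1%) and 12.9 kb (6.90 kb). Kcn windows were also longer, as given above. The scoring differed as well. A Kcn region was placed against Kcn genes alone, and a region of other genes against any other gene whose window held it. Of the Kcn regions in all 4 libraries, 31 of 216 lay inside another gene, as did 3 hCG-only and 1 PMSG-only regions. The part of this scoring in the gaps was not tested. A listed start was covered by 1 hCG-only region (1.39%, against 1.06% for other genes) and 1 PMSG-only region (2.13%, against 0.562%). By the rank of their folds within each list, hCG-only Kcn regions were at a median percentile of 28.4 (35 for other genes) and PMSG-only ones at 40.0 (31.1), against 55.9 (60.9) for regions in all 4.

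With full lists the voltage-gated pores were the 1 role in which PMSG-only regions outnumbered hCG-only ones, 19 (15.2%) against 17 (13.6%) of 125 regions. With the same number of peaks the numbers were 20 and 16. Kcnq5, a pore of the slow M-type current, gave 7 of the 19. Without Kcnq5 the role had 13 hCG-only and 12 PMSG-only regions. Its window held 12 and 12 intervals with hCG and 17 and 15 with PMSG, and 22 and 20 in WT against 10 and 13 in KO, so the groups did not overlap in either experiment. The PMSG-only region with the highest mean rank there, chr1:21890376-21891115, had folds of 17.7 and 15 and was held by all 4 PR libraries. Of the 4 hCG-only regions of Kcnq5, 3 lay among the PMSG-only ones along the gene body and 1 lay farther from the start than all of them.

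Kcnd2, the pore of an A-type current, had the most hCG-only regions of any Kcn gene, 5 of 12, beside 1 PMSG-only region. Its intervals numbered 11 and 10 with hCG and 6 and 6 with PMSG, and 12 and 15 in WT against 9 and 10 in KO. Its region chr6:21326885-21327575 had hCG folds of 13.0 and 14.7, lay 112 kb from the start and was held by all 4 PR libraries. At Kcnh1, of the ether-a-go-go family, 4 regions were hCG-only and 2 PMSG-only, while its interval numbers overlapped (8 and 6 against 4 and 6). One of its regions, chr1:192198458-192199034, reached hCG folds of 16.4 and 15.7 in the gene body, 7.97 kb from the start. Kcnb2, a delayed rectifier, ran the other way, with 1 and 1 intervals against 5 and 4 and 3 PMSG-only regions of 5. The best of these, chr1:15585270-15586031, had PMSG folds of 16.1 and 15.2 and was held by WT replicate 1 and KO replicate 2 alone in the PR experiment.

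Other pores had smaller differences in interval number. Kcnh2, the pore of the rapid delayed rectifier of the heart, held 7 and 7 intervals with hCG, 8 and 7 with PMSG and 8 in each PR library. Kcnq1, the pore of the slow cardiac delayed rectifier, held 7 and 7, 8 and 9, 10 and 8, and 6 and 7 in the order hCG, PMSG, WT and KO, so its groups did not overlap in either experiment. Kcna1, of the Shaker family, held 2 and 3 with hCG against 1 and 1 with PMSG, and 1 and 2 in WT against 1 and 1 in KO. Kcna2, Kcna10 and Kcnh7 had no interval in any library.

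With full lists silent subunits had the highest share of hCG-only regions, 10 of 34 (29.4%), all at 3 genes, beside 5 PMSG-only regions (14.7%). With the same number of peaks 8 (23.5%) were hCG-only and 7 (20.6%) PMSG-only, and inward rectifiers had an hCG-only share of 22.4%. Kcnv2, a partner of Kcnb pores, had 5 and 5 intervals with hCG and 1 and 1 with PMSG, and 4 of its 5 regions were hCG-only. In the PR experiment it had 5 and 5 intervals in WT against 3 and 1 in KO. Its strongest hCG-only region, with folds of 10.9 and 10.6, was held by all 4 PR libraries, and 2 others were WT-only. Kcng3 had 8 and 8 intervals against 5 and 5, with 4 hCG-only regions of 10 and no PMSG-only region. Kcng2 ran the other way, 5 and 4 against 7 and 7, with 2 PMSG-only regions. Kcng1 held 1 and 1 with hCG and 2 and 2 with PMSG, Kcns3 held 1 or 2, and Kcnv1 held 1 in each of the 8 libraries.

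Auxiliary subunits and regulators had 7 hCG-only (10.4%) and 5 PMSG-only (7.46%) of 67 regions, an order that turned to 7 against 8 with the same number of peaks. Kcnab1, a beta subunit of Shaker-type pores, accounted for 3 PMSG-only regions. Its region chr3:65021768-65022410, 72.9 kb from a start, had PMSG folds of 15.6 and 17.0 and was held by WT replicate 1 and KO replicate 2. The number of Kcnab1 intervals did not separate the LH groups (11 and 13 against 13 and 14). Kcne1, the subunit that slows Kcnq1 channels, held 5 intervals in every library but PMSG replicate 1, which held 4. Kcnip4, a calcium-binding partner of Kcnd pores, held 3 and 3 with hCG and 4 and 4 with PMSG, and Kcnip1, of the same family, held none in any library.

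With all listed starts of a gene counted as one, 5 Kcn genes changed sides in the LH experiment. Starts of Kcnc4, Kcne1l, Kcnh4 and Kcnj4 lay in a peak of both hCG and neither PMSG library, 4 of 69 genes, where 1.05% of other genes did so. Kcne2 alone lay in a peak of both PMSG and neither hCG library, where 0.209% of other genes did so. In addition, 1 of the 4 listed starts of Kcnc2 was in a peak of both hCG libraries (folds of 7.03 and 8.11) and neither PMSG library, while 2 others were open in all 8 libraries. Intervals of both PMSG libraries, with folds of 8.60 and 10.7, ended 143 bp from that Kcnc2 start, so this call rested on an interval's edge. At Kcne1l, which codes for a small subunit of the Kcne family, the folds were 6.46 and 6.23 with hCG and no PMSG interval lay within 2 kb. At Kcne2, a subunit of the same family whose promoter is printed above, the folds were 6.57 and 6.46 with PMSG and no hCG interval lay within 2 kb. Kcnj4, an inward rectifier, and Kcnc4, a fast-gating pore, had PMSG intervals that ended 11 and 84 bp and 386 and 507 bp from the start, so an interval's edge decided the call. At Kcnh4 the nearest PMSG intervals ended 422 and 1838 bp away. The merged regions over the starts of Kcnc4, Kcnj4 and Kcnh4 were held by 1 or both PMSG libraries as well, and only that of Kcne1l was hCG-only as a region.

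Inward rectifiers had 11 hCG-only (22.0%) and 6 PMSG-only (12%) of 50 regions. Kcnj3, a pore of the G protein-gated channel, had 4 hCG-only and 2 PMSG-only regions of 7 and held 6 and 5 intervals with hCG against 3 and 4 with PMSG. Kcnj11, the second pore of the ATP-sensitive channel, held 2 intervals in every library. Kcnj2, a strong inward rectifier, held 1 in every library but WT replicate 1, which held 2, and Kcnj8 held 1 to 3. Kcnj10, best known from glia, had 4 of its 5 regions in all 8 libraries.

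Two-pore channels had 8 hCG-only (13.8%) and 4 PMSG-only (6.90%) of 58 regions. Kcnk2, a stretch- and lipid-sensitive leak channel, held 9 and 10 intervals with hCG and 8 and 7 with PMSG, with 4 hCG-only and 2 PMSG-only regions of 13. Kcnk3, an acid-sensitive leak channel, held 9 and 8 against 6 and 5 and had 2 hCG-only regions. Kcnk1, the founding member of the family, held 3 and 3 against 4 and 4.

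Among calcium- or sodium-activated channels 19 of 99 regions (19.2%) were hCG-only and 8 (8.08%) PMSG-only. More of the former were found at 8 of the 12 genes and more of the latter at 2. Of 21537 other genes, 5294 had more hCG-only and 2212 more PMSG-only regions. The median window of this role was 92.7 kb, against 37.3 kb for other genes. With the same number of peaks, 16 regions were hCG-only and 10 PMSG-only. Then 7 genes had more hCG-only and 2 more PMSG-only regions, where 3887 and 3460 other genes did so. Kcnmb4, a beta subunit that alters the calcium response of Kcnma1 channels, held 8 and 7 intervals with hCG and 5 and 4 with PMSG. Its region chr10:116462960-116463299, in the gene body 10.4 kb from the start, had the highest mean rank of all hCG-only Kcn regions, with folds of 17.0 and 16.6, and was held by all 4 PR libraries. Kcnn3, a small-conductance channel, held 8 and 8 against 5 and 4. Its best hCG-only region, chr3:89640903-89641076, had folds of 10.9 and 13.1. Kcnt1, a sodium-activated pore, held 9 and 7 against 3 and 5, with folds of 13.8 and 13.3 at chr2:25875748-25876210. Both regions were held by all 4 PR libraries.

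Kcnn2, a second small-conductance channel, ran the other way, with 3 and 3 intervals with hCG, 6 and 6 with PMSG and 3 PMSG-only regions of 6. The first of these had the highest mean rank of all PMSG-only Kcn regions, with folds of 17.3 and 20, and WT replicates 1 and 2 and KO replicate 2 held it. Kcnt2, a sodium-activated pore, had 3 PMSG-only and 2 hCG-only regions of 16, and its hCG libraries differed from each other (6 and 11 intervals, against 11 and 10). Kcnma1 held 27 intervals in each of the 4 LH libraries. Of its 34 regions 18 were in all 4, 4 were hCG-only and 2 PMSG-only, so equal numbers covered partly different sites. Kcnmb1, its smooth-muscle beta subunit, had no interval in any library.

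Kcnn4, the intermediate-conductance calcium-activated channel, held 5 and 3 intervals with hCG and 3 and 2 with PMSG. Its 1 hCG-only region, chr7:24369873-24370162, had folds of 4.83 and 6.20, ended before the listed start, and was held by no PR library. Of the 72 hCG-only Kcn regions 4 (5.56%, against 7.22% for other genes) were held by no PR library; the others lay at Kcng3, Kcnh1 and Kcnma1. The RUNX matches in the printed promoter begin at -226, -213, -190 and -102 from the start. Both hCG libraries covered the first 3, and hCG replicate 2 covered the last in part. Of 21045 listed starts, 6 (0.0285%) held 4 or more RUNX matches in the 300 bases, and this count was chosen after the Kcnn4 sequence had been seen.

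**Figure D2:**
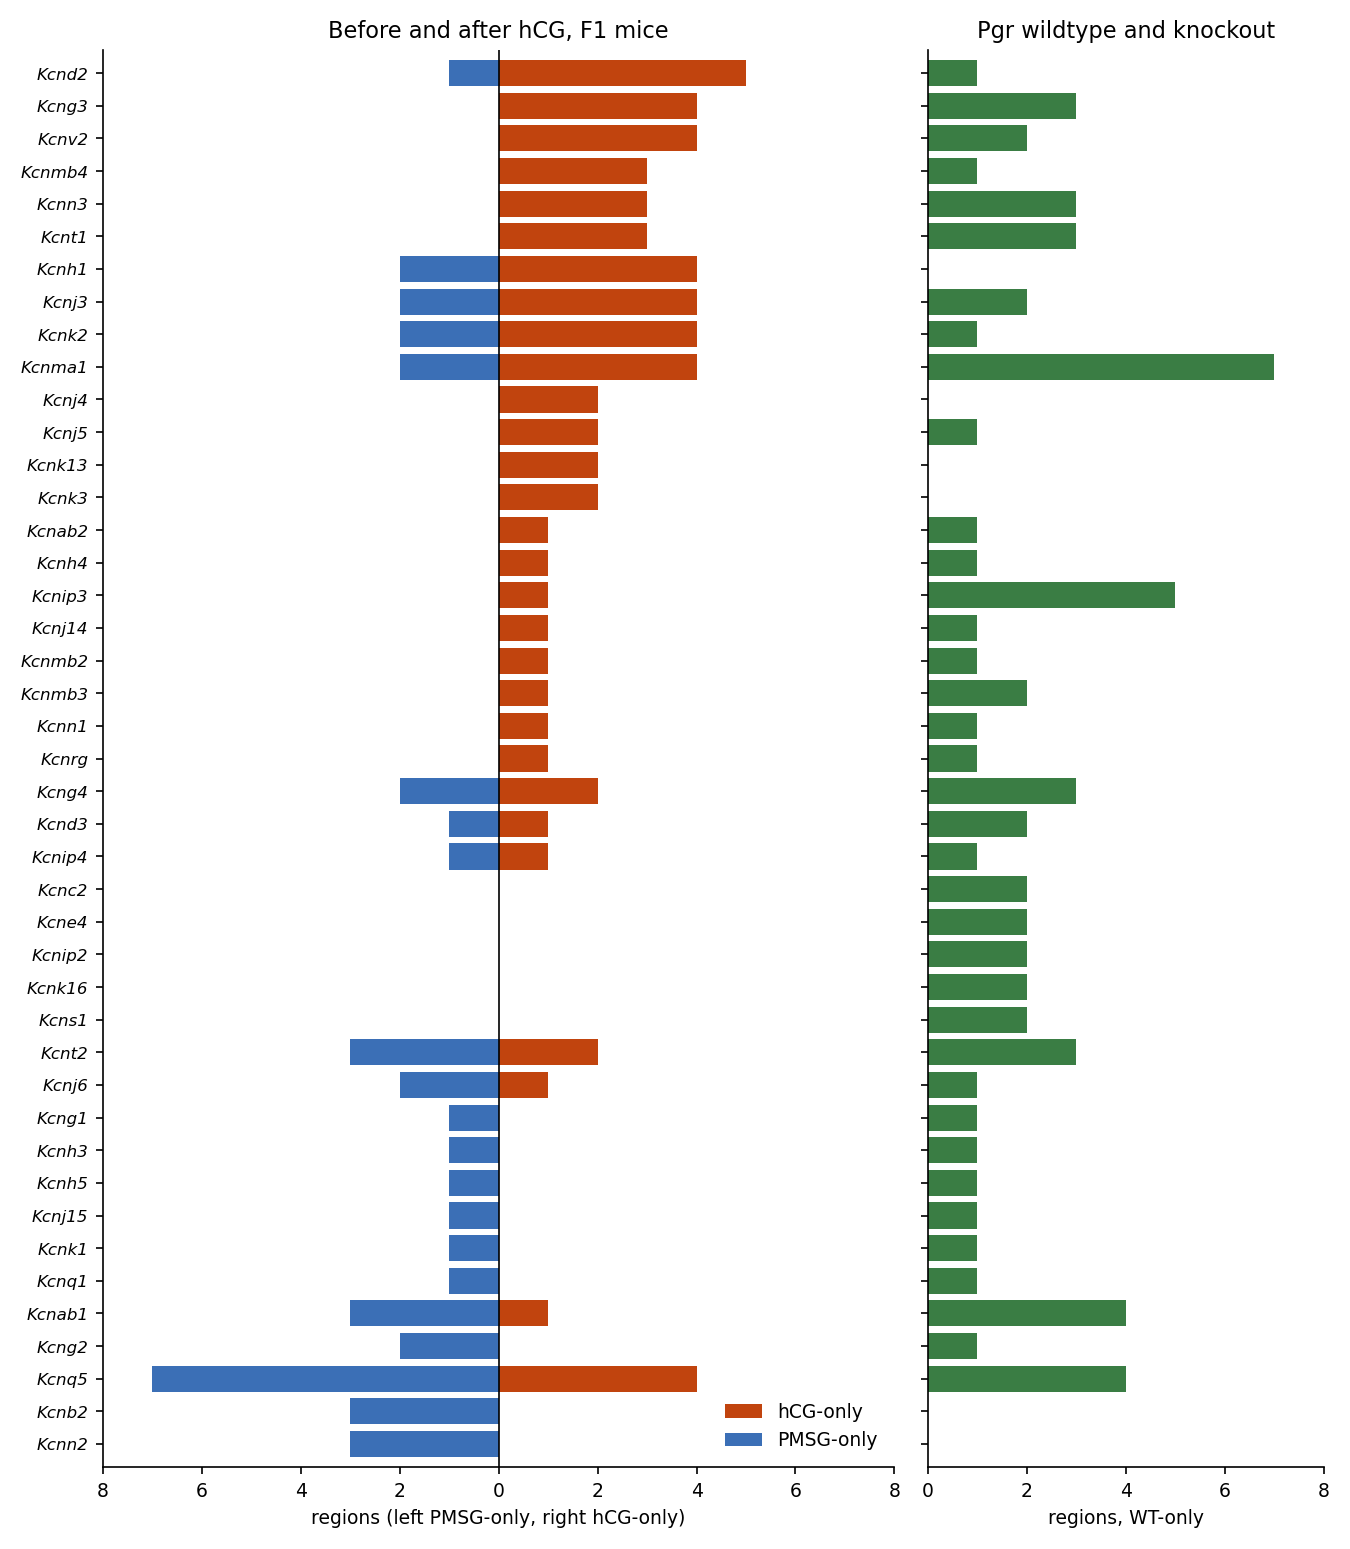
Regions held by both libraries of 1 group and neither of the other, for Kcn genes with 2 or more such regions over both experiments. Left, hCG-only regions to the right and PMSG-only regions to the left of 0; right, WT-only regions, with no KO-only region at any Kcn gene. Kcnd2 has 5 hCG-only and Kcnq5 7 PMSG-only regions, and Kcnma1 has 7 WT-only regions.

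In the PR experiment the Kcn windows held 492 regions, of which 256 (52.0%) were in all 4 libraries, against 55.5% of the 66620 regions of other genes. There were 80 WT-only Kcn regions (16.3%, where other genes had 11.8%) and 0 KO-only ones (where other genes had 0.0705%). The WT lists were longer. With the same number of peaks from each list by fold, 20 (5.14%) were WT-only and 13 (3.34%) KO-only, against 3.94% and 4.41% of regions of other genes. These 20 were all among the 80. Leaving out 1 library in turn gave 99 to 135 WT-only regions, the most without WT replicate 1 (29.0%, against 24.2% of other genes' regions).

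At least 1 WT-only region lay in the window of 44 Kcn genes (46.8%, against 27.2% of other genes), and no Kcn gene had a KO-only region (0.260% of other genes). In windows under 50 kb the shares were 38.6% and 17.1%, from 50 to 200 kb 44.8% and 43.2%, and from 200 kb 66.7% and 64.4%. With the same number of peaks, 17 Kcn genes (18.1%, against 9.59%) had a WT-only region and 13 (13.8%, against 11.0%) a KO-only region. Then 6.82% of Kcn genes with windows under 50 kb had a WT-only region (other genes, 4.59%), against 27.6% (16.3%) from 50 to 200 kb and 28.6% (34.7%) from 200 kb. For KO-only regions these were 13.6% (8.04%), 6.90% (14.2%) and 23.8% (29.5%), so in the shortest windows more Kcn genes had a KO-only than a WT-only region. Interval numbers were higher in both WT than in both KO libraries at 46 Kcn genes (48.9%, against 30.1%) and lower at 0 (0.107% of other genes). Without 1 PR library in turn, 50 to 58 Kcn genes had a WT-only region and 52 to 57 had more intervals in the WT than in the KO libraries left, both counts highest without WT replicate 1 (40.4% and 41.0% of other genes).

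By role, WT-only regions were 17 of 145 (11.7%) at voltage-gated pores and 12 of 39 (30.8%) at silent subunits. They were 17 of 77 (22.1%) at auxiliary genes, 8 of 56 (14.3%) at inward rectifiers, 4 of 63 (6.35%) at two-pore channels and 22 of 112 (19.6%) at calcium- or sodium-activated channels. With the same number of peaks these became 5, 3, 2, 1, 2 and 7, beside 3, 0, 3, 1, 2 and 4 KO-only regions in the same order. The excess of WT-only over KO-only regions thus shrank from 80 to 7 over all roles, and silent subunits had 3 against 0. Leaving out 1 PR library raised the numbers, to 24 to 33 at voltage-gated pores and 7 to 14 at two-pore channels, and silent subunits had the highest WT-only share each time (35.9% to 45.9%).

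**Figure D3:**
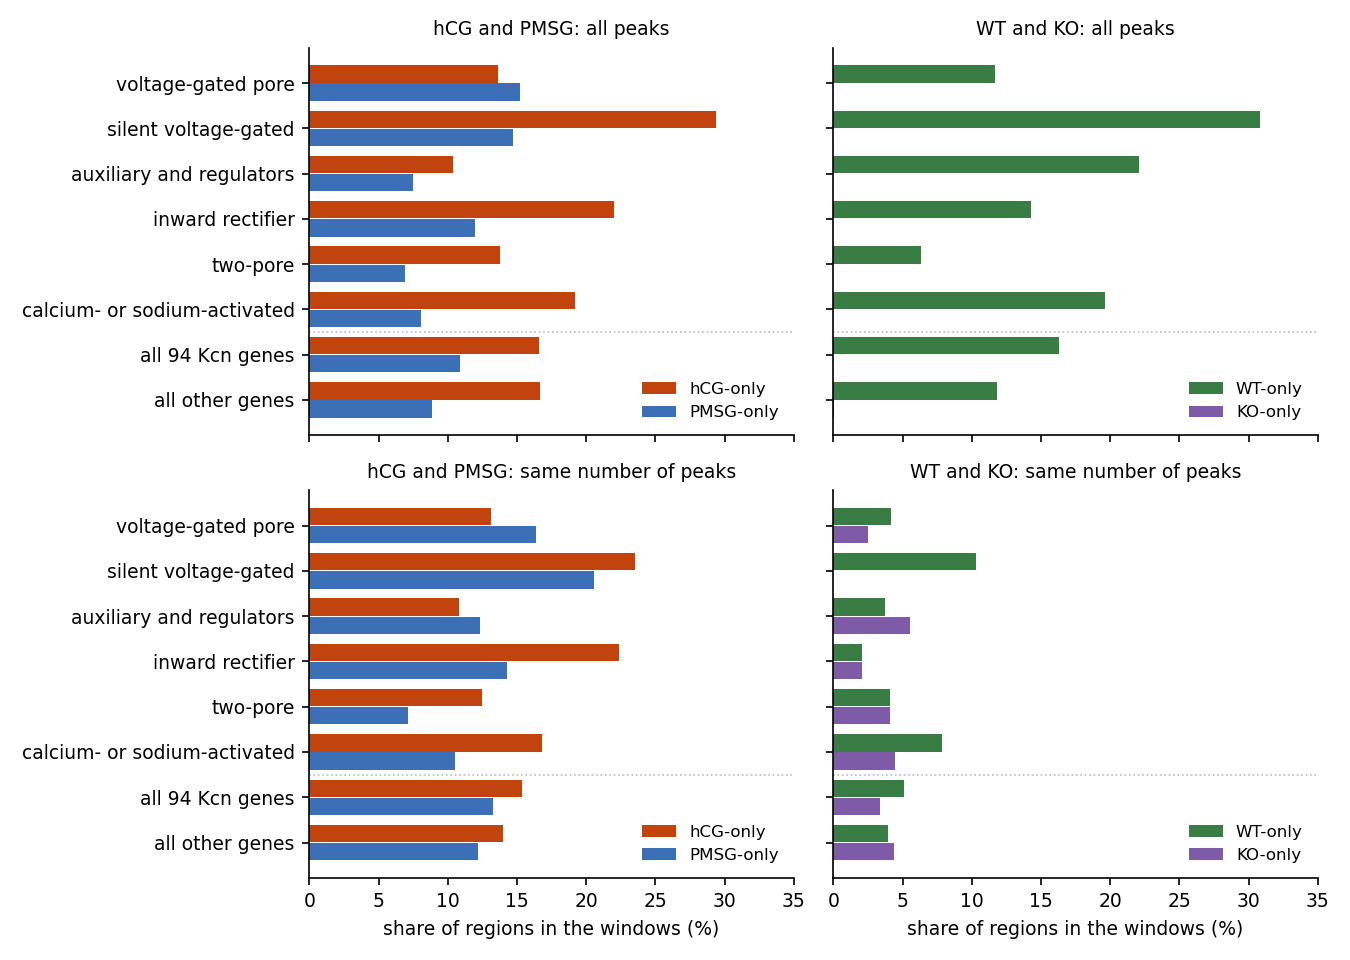
Share of regions in Kcn windows that were group-only, by role, for all 94 Kcn genes and for all other genes; left, hCG-only and PMSG-only, right, WT-only and KO-only; top, full lists, bottom, the same number of peaks from each list. Silent subunits have the highest WT-only share, 30.8% with full lists and 10.3% with equal lists.

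Kcng4, a silent subunit, held 2 intervals in each of the 4 LH libraries, 3 and 4 in WT, and 0 in both KO libraries. All 3 of its WT-only regions had folds between 3.22 and 6.69, and none was WT-only with equal lists. In the LH experiment an hCG-only and a PMSG-only region lay side by side just upstream of its start, and in WT replicate 1 a single interval bridged them. Kcnma1 had the most WT-only regions, 7 of 39, with 32 and 38 intervals in WT and 25 and 21 in KO. Only 2 of the 7 were WT-only with equal lists.

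Kcnip3, which codes for a calcium-binding partner of Kcnd pores that also acts as a transcriptional repressor, had 10 and 10 intervals in WT and 5 and 5 in KO, and 5 WT-only regions, of which 1 was WT-only with equal lists. That region, chr2:127521902-127522401, covered its upstream start and the AP-1 match that begins at -122 in the printed sequence. The folds were 9.28 and 9.42 in WT; no KO interval lay within 2 kb, and hCG replicate 2 and PMSG replicate 1 held the site while their partners did not. Another start of Kcnip3 was open in all 8 libraries. Kcne4, an inhibitory subunit of Kcnq1 channels, had its only listed start in a peak of both WT (folds of 4.28 and 3.71) and neither KO library, and PMSG replicate 2 held it too. This region was not WT-only with equal lists, and an interval of hCG replicate 1 ended 8 bp from the start. With all listed starts of a gene counted as one, Kcne4 and Kcne1l were the 2 of 69 Kcn genes held in WT only, where 0.697% of other genes were, and 0 Kcn genes were held in KO only (0.0291% of other genes). The KO intervals of Kcne1l ended 48 and 14 bp from the start, so the call rested on an interval's edge.

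The WT-only Kcn region of highest mean rank, chr10:116416509-116417116 in the flank of Kcnmb4, had WT folds of 9.89 and 13.6 and was held by all 4 LH libraries. Kcnq5 followed with chr1:21881653-21881916 (10.9 and 10.1) and Kcnc2, a fast-gating pore, with chr10:112350020-112350242 (9.07 and 10.7). Kcnv2 came next with chr19:27336399-27337032 (8.75 and 10.5). The Kcnq5 and Kcnv2 regions were held by both hCG and neither PMSG library, and the Kcnc2 region by both hCG libraries and PMSG replicate 1. All 4 were WT-only with equal lists as well. At Kcnn3, 2 of 3 WT-only regions were hCG-only in the LH experiment (folds of 5.10 and 6.94, and 6.63 and 7.04, in WT).

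Setting the experiments side by side, of the 72 hCG-only Kcn regions WT replicate 1 held 79.2% and WT replicate 2 held 93.1%, close to 79.0% and 91.0% for other genes. KO replicate 1 held 55.6% and KO replicate 2 held 40.3%, against 61.4% and 43.1%. All 4 libraries held 27 of them (37.5%, against 39.0%), and 19 (26.4%, against 17.3%) were held by both WT and neither KO library. Without 1 PR library in turn, 20 to 28 were held so, the most without KO replicate 1 (28 of 72, against 3617 of 10046 for other genes). At equal list length these shares were 50.8% and 64.6% in WT (58.3% and 73.1% for other genes) and 56.9% and 44.6% in KO (63.7% and 45.8%), and 5 of 65 (7.69%, against 7.90%) were WT-only. The 19 lay in the windows of 15 genes: Kcnab2, Kcnd3, Kcng3, Kcng4, Kcnh4, Kcnip3, Kcnj14, Kcnj5, Kcnma1, Kcnmb2, Kcnmb3, Kcnn3, Kcnq5, Kcnrg and Kcnv2. Those of Kcnh4, Kcnj14 and Kcnrg were in the flank, inside the neighbouring genes Rab5c, Grin2d and Trim13.

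The 47 PMSG-only Kcn regions were held unevenly by replicates. WT replicate 1 held 85.1% (77.7% for other genes), WT replicate 2 held 57.4% (47.5%), KO replicate 1 held 21.3% (21.8%) and KO replicate 2 held 40.4% (33.9%). With the same number of peaks the shares of 56 regions were 39.3%, 8.93%, 17.9% and 41.1%, against 34.3%, 12.6%, 24.8% and 45.3% for other genes. WT replicate 1 and KO replicate 2 thus held more PMSG-only Kcn regions than their partners in both settings, and WT replicate 2 and KO replicate 1 more hCG-only ones, and regions of other genes had the same order. Kcnb2, Kcnk2, Kcnk5 and Kcnn2 held the 5 PMSG-only regions that no PR library held (10.6%, against 18.4% for other genes).

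**Figure D4:**
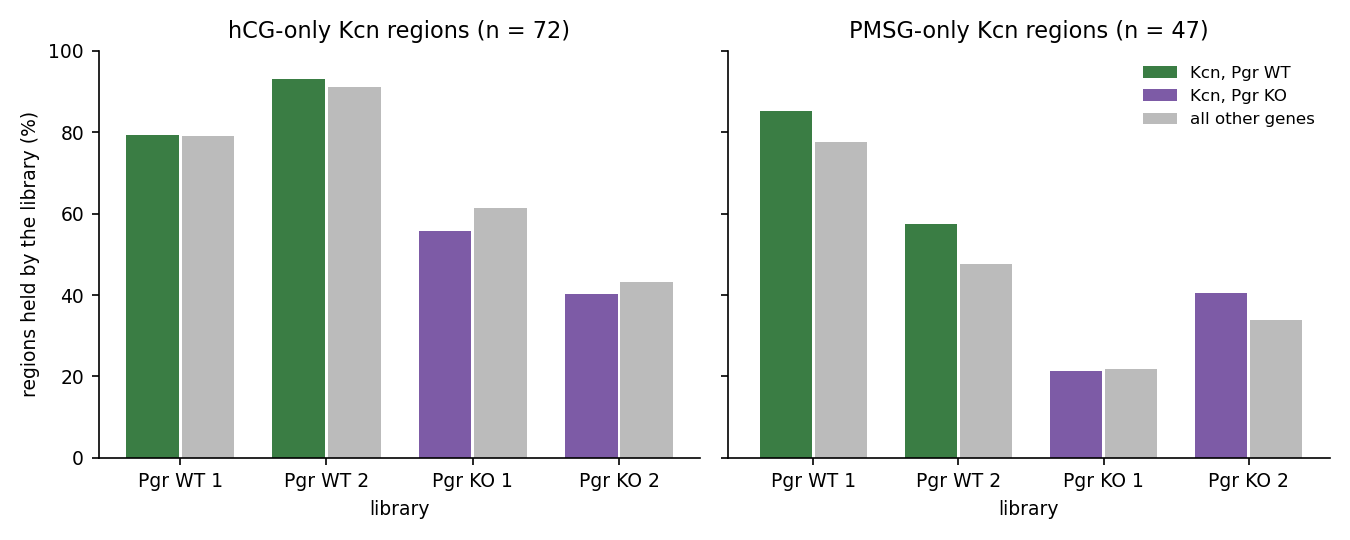
Share of the hCG-only (left) and PMSG-only (right) Kcn regions of the LH experiment that each PR library held, with full lists; coloured bars are Kcn regions and grey bars regions of all other genes. WT replicate 2 holds most hCG-only regions (93.1%) and WT replicate 1 most PMSG-only regions (85.1%).

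Intervals of all 8 libraries merged into 519 regions at Kcn genes, and 196 (37.8%) were held by all 8, against 41.2% of regions of other genes. At least 1 such region was present at 75 Kcn genes, 14 had regions but none in all 8, and 5 had no interval. By role the genes with the most were Kcnh2 and Kcnq5 (6 each, of 8 and 26 regions), Kcng2 (4 of 7), Kcnab1 (6 of 28), Kcnj10 (4 of 5), Kcnk3 (5 of 10) and Kcnma1 (16 of 42). The strongest by lowest rank in any library lay at Kcns2, a silent subunit, chr15:34837183-34837877, with folds of 18.5 and 20.5 with hCG, 20.7 and 21.3 with PMSG, 22.1 and 19 in WT, and 20.6 and 14.7 in KO. The next was in the window of Kcnh6, but inside the neighbouring gene Dcaf7. Regions at Kcnq1 (chr7:143153802-143154403), and at the starts of Kcna4, Kcnc1 and Kcnt2, followed, with all folds between 14.0 and 19.8.

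**Figure D5:**
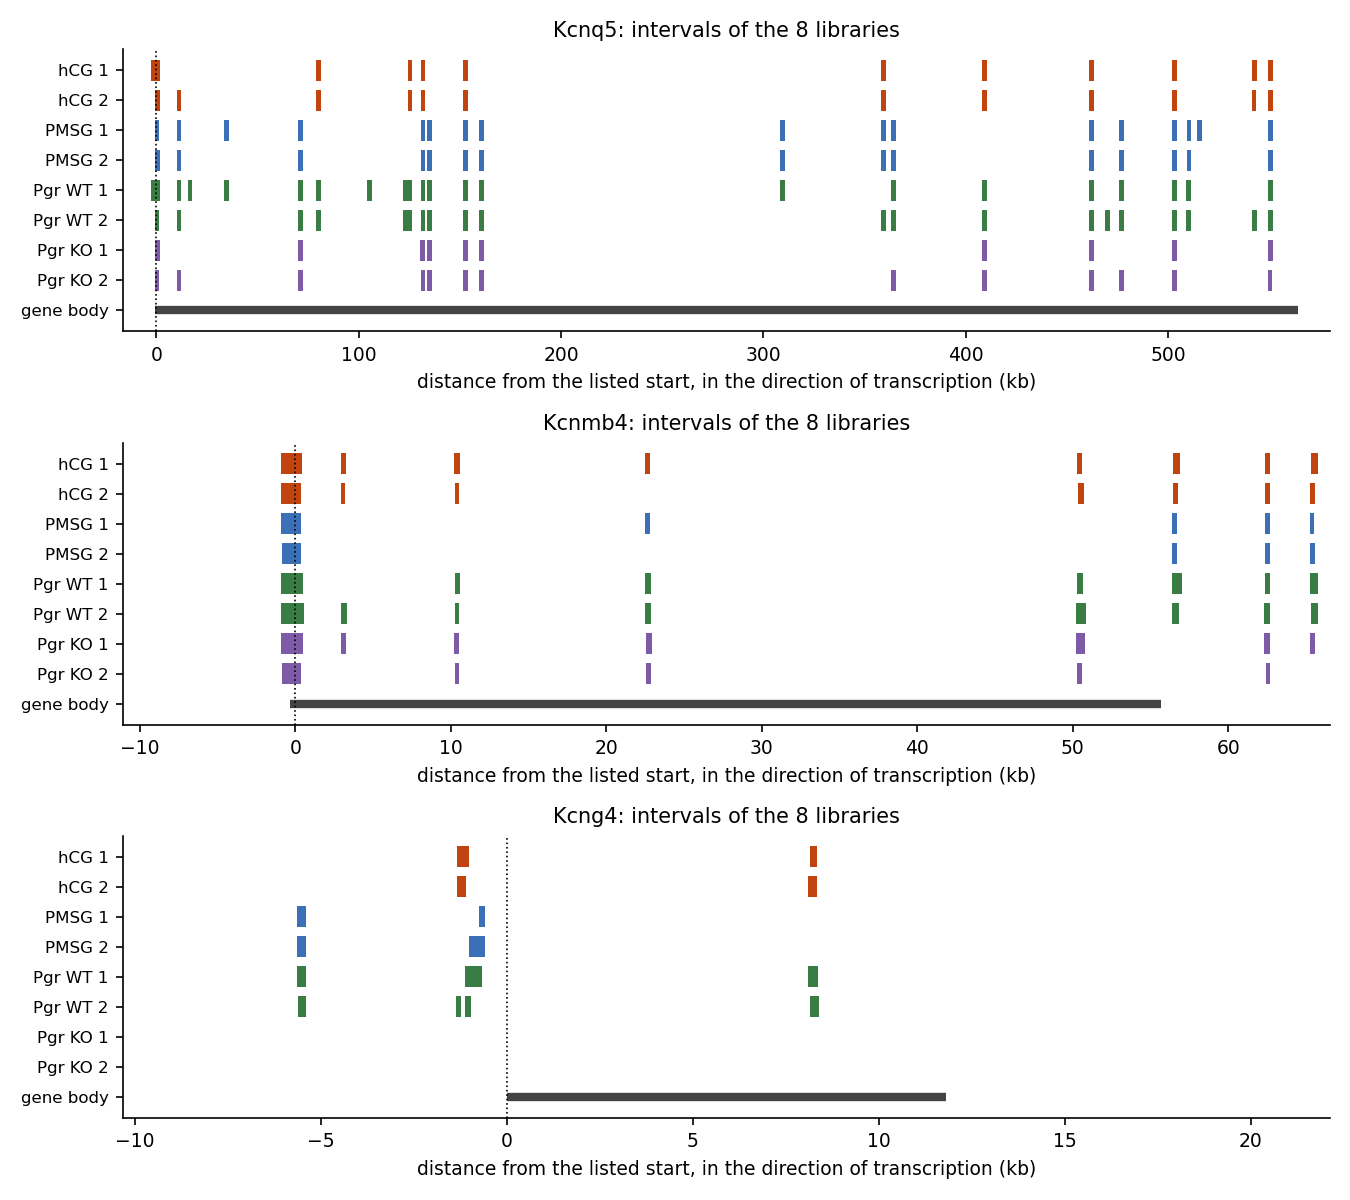
Intervals of the 8 libraries along Kcnq5, Kcnmb4 and Kcng4, by distance in kb from the listed start in the direction of transcription; each block is an interval, drawn at a minimum width for visibility, the grey bar is the gene body and the dotted line the start. Kcnq5 shows sites held by PMSG or hCG libraries in turn, Kcnmb4 a site 10.4 kb from the start in every library but the PMSG ones, and Kcng4 no interval in either KO library.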

How the data were processed

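Peak lists of 8 ATAC-seq libraries were used; per the submitters' processing notes Bowtie2, MACS2 and the build mm10 were used, with versions and settings not given in the sources used here. No source used here says if positions were moved to the transposase's cutting point. The peak names of the PR libraries, but not of the LH libraries, mention filtering and marked duplicates. The fold over the caller's background, a ratio, and the −log10 q were deposited by the authors for each peak; no deposited q lay above the threshold set by a −log10 q of 10. Peaks were called per library.

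Summits sharing an interval were collapsed to 1 interval with the best fold, on chromosomes 1 to 19 and X. Windows, regions, group-only calls and the exact permutation test were computed in Python 3.11.15 with pandas 2.3.3, numpy 2.4.6 and matplotlib 3.10.9, and tested on simulated lists. The labels name biological replicates, each a pool of mice. Genes named were the 6 with most group-only regions in each direction, the 5 group-only regions of best mean rank, starts that changed sides, starts open in all libraries, genes without intervals, the gene of each role with most regions in all libraries, and a fixed choice per role. The members, roles, gene lists, motifs and markers were chosen with earlier results of these data known. Alternatives were a −log10 q of 20, equal list lengths, a 50% overlap, no flank, 50 kb flanks, each library left out and a replicate block; gene, role and cross-experiment counts without each PR library were added after the data were seen. Sequences and starts are from RefSeq, GRCm38.p6, which is the same assembly as mm10; 69 of the 94 Kcn genes matched. Single results of a few members are not reported here. Coordinates are 1-based.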

Additional observations from a re-analysis of the deposited data

How the results depend on the processing

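The peak lists hold presence and height but no reads, groups hold 2 libraries each, and absence from a list can reflect its length. With 50 kb flanks the hCG minus PMSG difference in the Kcn rate changed sign to 0.0748, and 136 hCG-only, 72 PMSG-only and 138 WT-only regions were counted, since more regions fell in the windows. The number of WT-only regions was 20 with equal lists by fold and 15 with equal lists by −log10 q, an alternative chosen after seeing the data. KO-only regions numbered 1 with a −log10 q of 20 or more, 13 with equal lists by fold and 8 by −log10 q. With equal lists by −log10 q, PMSG-only regions (58) outnumbered hCG-only ones (56); by fold the order was the reverse. Without 1 library the counts ranged from 79 to 92 (hCG-only), 56 to 62 (PMSG-only), 99 to 135 (WT-only, the highest without WT replicate 1) and 0 to 4 (KO-only). The rate differences ranged from -0.229 to -0.135 (hCG minus PMSG) and 0.159 to 0.310 (WT minus KO), and the starts open in every remaining library stayed at 31. Such starts numbered 30 with a −log10 q of 20 or more, and 27 with equal lists or with the start 50 bp inside. With equal lists by fold, WT-only minus KO-only regions became -1 at Kcnab1, Kcnq1 and Kcnt1. With the replicate number as a block the differences were -0.182 and 0.234 (exact sign-flip p = 0.50 each, the smallest possible); the numbers only name the libraries and do not pair them. The causes of these changes were not tested beyond list length and window size.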

Other observations

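Other genes of potassium transport were described for comparison, from a list of 29: channel partners, sodium pump and cation-chloride cotransporter genes, and other cation channels. In the LH experiment their windows held 121 regions, of which 18 were hCG-only and 18 PMSG-only (14.9% each), where all genes other than Kcn had 16.7% and 8.89%. In the PR experiment 15 of 139 (10.8%, against 11.8%) were WT-only and 0 KO-only (against 0.0705%). Dpp10, a transmembrane partner of Kcnd pores, had 7 PMSG-only and 2 hCG-only regions of 16, and its start lay in a peak of both hCG libraries, WT replicate 1 and KO replicate 1. Abcc9, the sulfonylurea receptor that pairs with Kcnj8 pores, had its start in a peak of all 8 libraries, as had Atp1b1, a beta subunit of the sodium pump. All 4 listed starts of the other cation channels (the Hcn and Tmem genes) were open in all 8 libraries.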
